A study of Homo sapiens with 10 samples.

Results

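LGR4, LGR5 and LGR6 are the cell-surface receptors for R-spondins, and RSPO1 is one of the R-spondin ligands. Their RNA was followed here in a human colon cancer cell line and in its metastatic derivatives from mice. The members are all rows of the expression table whose only listed gene is LGR4 (21 rows), LGR5 (18 rows), LGR6 (21 rows) or RSPO1 (12 rows), 72 of 65535 rows in all. No row listed a member beside another gene. Each row is taken as a probe set for part of a gene, and averaging a gene's rows gives its gene mean. By RefSeq (GRCh38.p14) LGR4 lies on chromosome 11, LGR5 on chromosome 12, and LGR6 and RSPO1 on chromosome 1.

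The cells are SW620, an established line from a lymph node metastasis of a colon adenocarcinoma. Lung metastasis derivatives (3 arrays) and liver metastasis derivatives (3 arrays) were cells that had formed a metastasis in a balb/c nude mouse and were then taken out and expanded in culture. Parental SW620 (4 arrays) is the line before selection. No further genotype, agent or time is given, and the mouse strain is named in the labels of every array, the parental ones included. Whether the 3 arrays of a derivative came from different metastases or from repeat cultures is not said, so p-values measure only the spread between these samples.

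R-spondins strengthen Wnt signalling. When an R-spondin binds an LGR receptor, the complex captures the membrane ubiquitin ligases RNF43 and ZNRF3, which otherwise remove Frizzled receptors from the cell surface, so more Frizzled stays available to Wnt ligands. LGR5 is itself a target gene of Wnt and beta-catenin and marks the cycling stem cells at the base of intestinal crypts, LGR4 is expressed more widely in the crypt and in many other tissues, and LGR6 is best known from stem cells of the skin.

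The values are log2 expression on an Affymetrix HG1.0ST chip, and lay between 2.55 and 13.99. The keratins KRT8 and KRT18, defining genes of simple epithelium, averaged 12.11 to 12.33 in the lung arrays, 12.21 to 12.28 in the liver arrays and 12.13 to 12.25 in the parental arrays, and neither passed the test in any comparison. Parental array 4 stands apart: it correlated at 0.968 to 0.970 with parental arrays 1 to 3, which correlated at 0.987 to 0.989 with each other, and its correlation with lung arrays was 0.966 to 0.967, where parental arrays 1 to 3 had 0.946 to 0.961. The labels give no batch. An alternative fit therefore took 2 array sets, one of the lung arrays plus parental array 4 and one of the other 6 arrays. In it, lung derivatives are in effect set against parental array 4 only, and liver derivatives against parental arrays 1 to 3. Lung against liver is then the difference between these changes, so it depends on parental array 4 as well. Values of this fit are marked "with the set term". As parental array 4 is then a lone array, its spread is assumed to be that within the other arrays, and the lung p-values of this fit hold no check of that array. Markers of other cell types also moved with the lung arrays: of 7 leukocyte markers 4 were called higher than in parental cells. The mean level of the 7 was 6.66 to 6.69 in lung arrays against 6.17 to 6.35 in parental arrays. LYZ rose most, at 8.76, 8.73 and 8.69 in lung arrays against 7.02, 6.99, 6.78 and 7.55 in parental arrays. The other leukocyte markers changed by 0.08 (CD2) to 0.45 (CD3D). Of 6 lung epithelial markers 3 were higher (mean level 7.49 to 7.61 in lung arrays against 7.26 to 7.42 in parental arrays), and so were 2 of 5 stromal markers, with 1 lower, and 1 of 5 endothelial markers. Of 7 hepatocyte markers 1 was lower. In liver derivatives 1 leukocyte marker was higher, LYZ, at 8.19, 8.10 and 7.88 (mean level of the list 6.37 to 6.38 in liver arrays). There 1 stromal marker was lower, and 0 of the hepatocyte and lung epithelial markers were called by limma. As background, 12.9% of all gene means were called higher and 17.3% lower in lung derivatives, and 4.33% and 3.50% in liver derivatives. With the set term the median lung change of the leukocyte markers was 0.22 (0.19 without it). It was 0.09 (0.26) for the lung epithelial, 0.06 (0.11) for the stromal, 0.03 (0.10) for the endothelial and 0.02 (0.20) for the hepatocyte markers. The part of these markers in the results below was not tested.

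To set beside each other the regulatory DNA of a receptor that fell in lung derivatives (LGR6) and of one that was not called there (LGR4), the 250 bases before the annotated start of LGR4 (chr11:27472791-27473040, minus strand) and of LGR6 (chr1:202193549-202193798, plus strand) are shown from RefSeq (GRCh38.p14), whose promoter table held 3 of the 4 members. The member without a window there is LGR5. RefSeq lists further LGR6 starts downstream, and which start these cells use was not tested. Each window shown is written 5′ to 3′ on the strand of the gene.
LGR4: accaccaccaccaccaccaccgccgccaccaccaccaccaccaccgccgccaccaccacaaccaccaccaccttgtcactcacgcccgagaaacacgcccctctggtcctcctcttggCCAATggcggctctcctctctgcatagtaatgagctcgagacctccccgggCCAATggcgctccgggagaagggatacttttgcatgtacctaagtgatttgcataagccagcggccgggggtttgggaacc
LGR6: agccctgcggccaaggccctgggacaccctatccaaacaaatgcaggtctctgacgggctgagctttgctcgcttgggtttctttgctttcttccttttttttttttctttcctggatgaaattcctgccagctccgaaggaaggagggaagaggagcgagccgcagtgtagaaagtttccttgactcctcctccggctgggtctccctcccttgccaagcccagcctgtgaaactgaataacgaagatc
Capitals mark CCAAT, the core bound by the factor NF-Y, searched on both strands. It occurs 2 times before LGR4 and 0 times in the LGR6 window shown, while 9.53% of all 35116 such windows hold at least 2. Of the 2 further LGR6 starts, not shown, the window at chr1:202203462-202203711 holds 1 CCAAT, 218 bases before the start, and the other holds 0. None of 4 TCF-type motifs (CTTTGAA, its variant CTTTGAT, then CTTTGTA with its variant CTTTGTT) was found on either strand before LGR4, LGR6 or RSPO1, whereas 11.96% of all windows hold at least 1. The LGR4 window has 62.0% G and C with 14 CpG pairs and the LGR6 window 53.2% with 8. These are descriptions of letters and not of binding.

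LGR5 fell in both kinds of derivative, and further in the lung derivatives, a difference that was not called with the set term. Its gene mean was 8.38, 8.50 and 8.14 in lung arrays, 8.57, 8.86 and 8.97 in liver arrays, and 9.64, 9.74, 9.62 and 9.45 in parental arrays (log2 level). All derivative arrays lay below all parental arrays, as they did for 19.5% of all gene means in lung and 9.17% in liver derivatives. All lung arrays also lay below all liver arrays, which held for 27.2% of all gene means. Against parental cells the change was -1.27 in lung derivatives (SE 0.11, 2.42-fold lower, limma adjusted p = 5.07e-05) and -0.81 in liver derivatives (SE 0.11, 1.76-fold lower, limma adjusted p = 0.000888). For background, 17.3% of the 4713 gene means were called lower in lung derivatives and 3.50% in liver derivatives. With the set term the LGR5 change was -1.11 (SE 0.16, limma adjusted p = 0.00432) in lung and -0.87 (SE 0.12, limma adjusted p = 0.000865) in liver derivatives, where 2.67% and 4.31% of gene means were called lower. In bulk RNA, fewer cells with the transcript and less transcript per cell cannot be told apart.

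**Figure D1:**
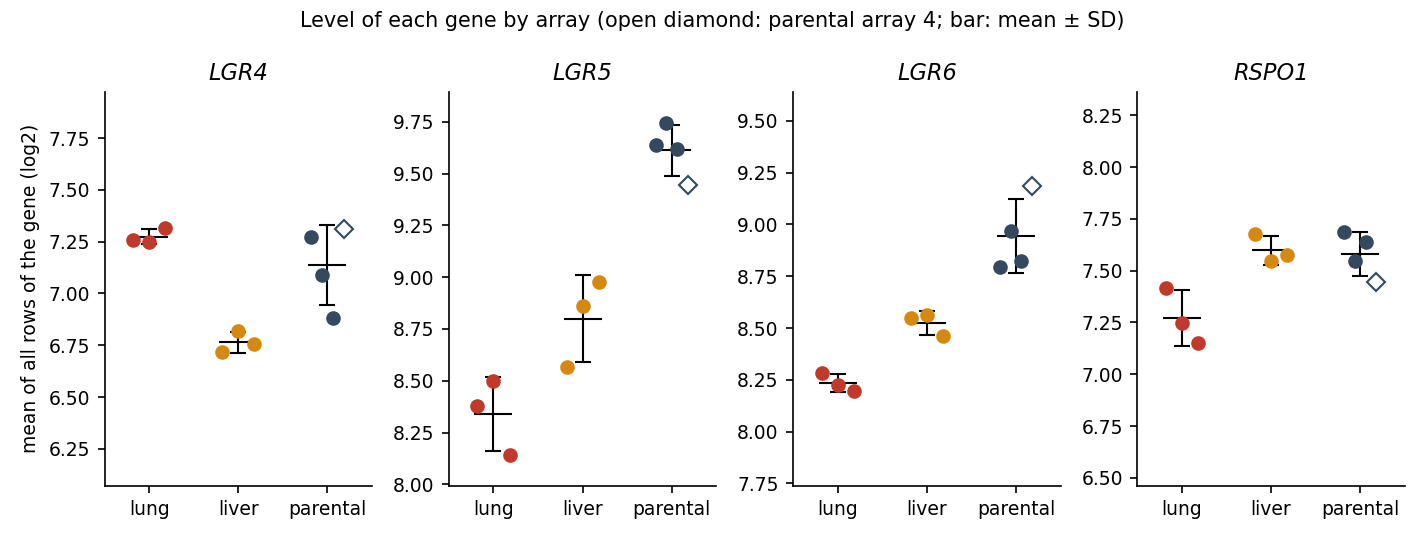
Gene mean (log2 level, mean of all rows of the gene) of LGR4, LGR5, LGR6 and RSPO1 in each array, by group, with the group mean and SD as bars and parental array 4 as an open diamond; all panels span the same height on the log2 axis. LGR5 and LGR6 lie lower in all lung and liver arrays than in all parental arrays, LGR4 is lowest in the liver arrays (6.72 to 6.82), and RSPO1 is lowest in the lung arrays (7.15 to 7.42).

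In lung derivatives nearly all LGR5 rows fell. Of its 18 rows 17 were called lower there, against 7.99% of all 56949 rows tested, and in all 18 every lung array lay below every parental array, against 14.3% of all rows. The row changes ranged from -2.40 to -0.53 with a median of -1.20, against a median of -0.03 over all rows. The brightest row, 7957157, stood at 9.30, 9.29 and 9.26 in lung arrays against 10.76, 11.27, 11.19 and 10.29 in parental arrays. Here parental array 4 was the lowest parental array, and the change of -1.59 (SE 0.21) became -1.01 with the set term.

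The steepest row, 7957152, had 6.19, 4.31 and 5.78 in lung arrays against 8.56, 7.85, 7.55 and 7.36 in parental arrays, a change of -2.40 with a wide SE of 0.54. At the other end, row 7957153 was the single row not called (-0.53, SE 0.21, limma adjusted p = 0.118). Its lung arrays stood at 9.20, 9.28 and 8.43 against 9.38, 9.38, 9.42 and 9.79 in parental arrays, so the groups did not overlap but lung array 3 lay well below the other lung arrays. The most even row, 7957146, had 8.74, 8.75 and 8.75 in lung arrays against 9.58, 9.81, 9.76 and 9.65 in parental arrays. Parental array 4 lay below the other parental arrays in 8 LGR5 rows, above them in 3 and among them in 7. Set against that single array, all 18 rows were still lower in lung (-1.94 to -0.58), but 1 row, 7957142, was called, against 0.371% of all rows called lower.

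In liver derivatives 8 of the 18 LGR5 rows were called lower, against 1.04% of all rows. All 18 changes were below 0 (-1.16 to -0.56), with a median of -0.82 against 0.01 over all rows. In 14 rows the liver and parental arrays did not overlap, against 7.56% of all rows. The call rests on few arrays: with any 1 of the 3 liver arrays or of parental arrays 1 to 3 left out, between 0 and 1 of the rows were called, whereas without parental array 4 there were 6. The gene mean was called in all of these fits. Row 7957146 had the smallest adjusted p (-0.71, SE 0.12, limma adjusted p = 0.0155), with 8.76, 9.001 and 9.21 in liver arrays against the parental values given above. The brightest row, 7957157, had 10.05, 10.26 and 10.26 in liver arrays and was not called (-0.68, SE 0.21).

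**Figure D2:**
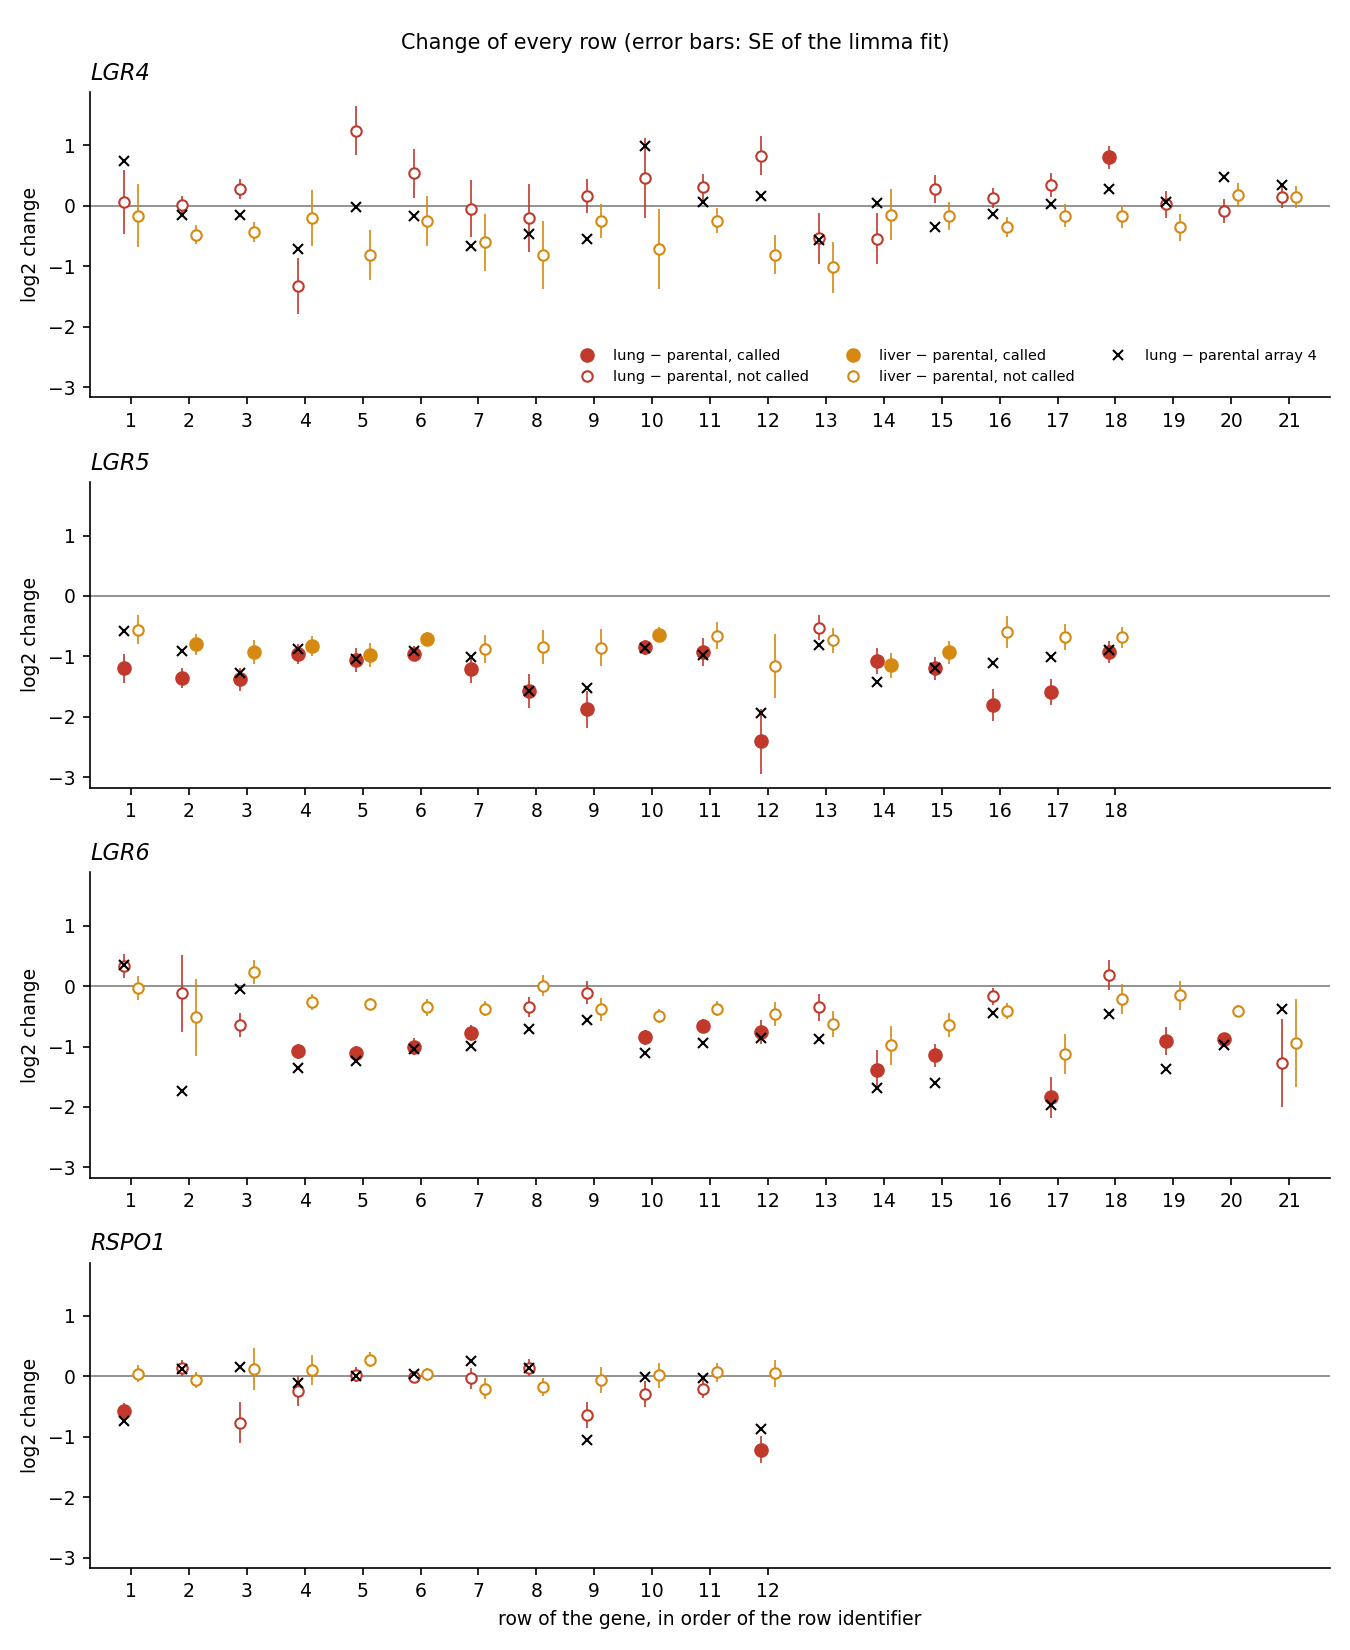
Change of each row (log2, with the SE of the limma fit) in lung and liver derivatives against parental cells for the 4 genes, with rows in order of their identifiers. Filled points were called at an adjusted p under 0.05 and crosses give lung against parental array 4 alone. All LGR5 points lie below 0, 19 of 21 LGR6 points and 9 of 12 RSPO1 points lie below 0 in lung derivatives, and LGR4 points lie on both sides of 0 in lung derivatives and mostly below it (19 of 21) in liver derivatives.

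LGR6 also fell. Its gene mean was 8.28, 8.22 and 8.20 in lung arrays, 8.55, 8.56 and 8.46 in liver arrays and 8.79, 8.97, 8.83 and 9.19 in parental arrays, with no overlap between any of the groups. The same order without overlap held for 19.5% of all gene means in lung against parental cells, 9.17% in liver against parental cells and 27.2% in lung against liver. The change was -0.71 in lung derivatives (SE 0.09, 1.63-fold lower, limma adjusted p = 0.000442) and -0.42 in liver derivatives (SE 0.09, 1.34-fold lower, limma adjusted p = 0.0133). Parental array 4 was the highest parental array, so that the lung value was larger with the set term (-0.95, SE 0.09, limma adjusted p = 0.000404) and the liver value smaller (-0.34, SE 0.06, limma adjusted p = 0.00748). The liver call was lost without liver array 3 (-0.39, limma adjusted p = 0.0743) and by the brightest row alone (-0.37, limma adjusted p = 0.145). By the median of the row levels in each array in place of their mean both calls were lost (-0.28 in lung derivatives and -0.36 in liver derivatives). A different row can set that median in each array. The median of the row changes was -0.78 in lung derivatives, with 19 of 21 rows below 0, against -0.03 over all rows.

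The rows of LGR6 did not move evenly. In lung derivatives 12 of 21 were called lower, against 7.99% of all rows, and 0 higher, and in 14 the lung arrays lay wholly below the parental arrays, against 14.3% of all rows. Against parental array 4 alone 7 of the 21 were called lower, a share to set beside 0.371% of all rows. The smallest adjusted p belonged to row 7908822, which had 8.85, 8.95 and 8.86 in lung arrays, 9.80, 9.73 and 9.54 in liver arrays and 9.98, 9.98, 9.88 and 10.13 in parental arrays. Its lung change was -1.10 (SE 0.10, limma adjusted p = 0.000867), and -1.24 with the set term.

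Some rows behaved otherwise. Row 7908817 stood at 8.26, 7.36 and 7.95 in lung arrays against 7.48, 7.74, 7.38 and 7.51 in parental arrays, which overlap (0.33, SE 0.20). Row 7908820 had 9.85, 9.84 and 9.75 in lung arrays against 10.68, 10.50, 10.76 and 9.85 in parental arrays, so its lung level matched that of parental array 4 (-0.04 with the set term). The brightest row, 7908828, was called lower (-0.66, SE 0.12). The sources used here do not place the rows in the transcript. In liver derivatives 0 of the 21 LGR6 rows were called by limma, where 1.04% of all rows were called lower. The median row change there was -0.38, against 0.01 over all rows. In 10 rows the liver arrays lay wholly below the parental arrays, against 7.56% of all rows.

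LGR4 fell slightly in liver derivatives and did not pass the test in lung derivatives. Its gene mean was 7.26, 7.25 and 7.32 in lung arrays, 6.72, 6.82 and 6.76 in liver arrays and 7.27, 7.09, 6.88 and 7.31 in parental arrays. The liver arrays lay below all parental arrays (the 3.50% and 9.17% above are the matching shares of all gene means), while the lung arrays lay within the parental range or just above it. The liver change was -0.37 (SE 0.09, 1.30-fold lower, limma adjusted p = 0.0330), with 0 of 21 rows called, where 1.04% of all rows were called lower. That call was lost with the set term, which is also the value without parental array 4 (-0.32, limma adjusted p = 0.0555), and without any single liver array or parental array 1 or 2. In lung derivatives the change was 0.14 (SE 0.09, 95% confidence interval -0.07 to 0.34, limma adjusted p = 0.292), and -0.04 with the set term.

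Of the 21 LGR4 rows 1 was called higher in lung derivatives than in parental cells, and 0 were with the set term by limma. Row 7947217, the brightest of the gene, had 10.37, 10.63 and 10.497 in lung arrays, 9.64, 9.35 and 9.58 in liver arrays and 9.36, 9.54, 9.67 and 10.23 in parental arrays. It was the row called (0.80, SE 0.19, limma adjusted p = 0.0297), where 5.15% of all rows were called higher, and it was 0.27 above parental array 4. Row 7947204 had 9.97, 9.82 and 9.29 in lung arrays and 9.72 in parental array 4, against 7.35, 7.73 and 7.83 in liver arrays and 7.81, 8.12 and 8.16 in the other parental arrays. It was not called against parental cells (1.24, SE 0.41, limma adjusted p = 0.0732; -0.02 with the set term). Of the 21 LGR4 rows 10 had a mean level under 7, against 1 of 18 for LGR5 and 3 of 21 for LGR6, and without such rows the lung change of the gene was 0.33 (limma adjusted p = 0.0333).

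RSPO1, the ligand, was lower in lung derivatives by its gene mean. It stood at 7.42, 7.25 and 7.15 in lung arrays, 7.67, 7.54 and 7.57 in liver arrays and 7.69, 7.55, 7.64 and 7.45 in parental arrays. Lung array 1 and parental array 4 lay close together. The lung change was -0.31 (SE 0.08, 1.24-fold lower, limma adjusted p = 0.0178), and -0.17 (SE 0.11, limma adjusted p = 0.352) with the set term. Leaving out parental array 1 or lung array 3 also ended the call (limma adjusted p = 0.0524 and 0.0619). The level of RSPO1 was low: its parental average of 7.58 lay among those of hepatocyte and lung epithelial markers. APOA1 averaged 7.83, SFTPD 7.54 and AGT 7.14 in parental arrays, and other such markers lay lower, down to 5.66 (CYP2C8). Whether RSPO1 RNA is present in these cells at all was not tested.

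Few RSPO1 rows passed the test. Of 12 rows 2 were called lower, beside 7.99% of all rows. In 9 rows the change was below 0, with a median of -0.23 against -0.03 over all rows. Row 7915044 was the furthest down, at 7.04, 7.30 and 6.53 in lung arrays against 8.51, 8.03, 8.32 and 7.82 in parental arrays (-1.22, SE 0.22). The other called row, 7915033, was the dimmest of the gene and low in the range of values. It had 3.69, 3.81 and 3.73 in lung arrays against 4.06, 4.60, 4.15 and 4.48 in parental arrays (-0.58, SE 0.14). The brightest row, 7915038, had 9.16, 9.38 and 9.08 in lung arrays against 9.11, 9.27, 9.32 and 9.17 in parental arrays (-0.01, SE 0.10), so these overlap. In liver derivatives the gene mean changed by 0.02 (SE 0.08, 95% confidence interval -0.16 to 0.20), and 0 of the 12 rows were called or had an unadjusted p under 0.05.

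Between lung and liver derivatives LGR4 was higher in lung (0.51, SE 0.10, 1.42-fold, limma adjusted p = 0.0134), while LGR5 (-0.46, SE 0.12, limma adjusted p = 0.0269) and RSPO1 (-0.33, SE 0.09, limma adjusted p = 0.0274) were lower. In each of these the lung and liver arrays did not overlap, which held for 18.9% of all gene means in the higher and 27.2% in the lower direction. LGR6 was -0.29 (SE 0.10, 95% confidence interval -0.50 to -0.08) with an adjusted p of 0.0540 by limma. For background, 8.02% of gene means were called higher and 11.9% lower in this comparison. By row, 4 LGR4 rows were called higher, and 2 LGR5, 5 LGR6 and 2 RSPO1 rows lower, against 5.02% and 7.61% of all rows. With the set term none of the 4 gene means passed (0.28 for LGR4, -0.24 for LGR5, -0.61 for LGR6 and -0.15 for RSPO1; smallest limma adjusted p = 0.0942, for LGR6), in a fit in which 0.0849% of gene means were called, and 0 member rows were called beside 0.0632% of all rows. LGR5 also failed without liver array 2 or 3 or lung array 1 or 3, RSPO1 without any single liver array or lung array 2 or 3, and LGR4 without liver array 2 (limma adjusted p = 0.0566). LGR6 passed without parental array 4 (limma adjusted p = 0.00869) and without parental array 1 (limma adjusted p = 0.0495).

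The share of higher calls among gene means depends on scaling: it was 42.7% as deposited, 52.4% after a further quantile normalization and 54.2% after median centring in lung against parental cells, and 40.3%, 54.7% and 54.2% in lung against liver. The directions of the 4 members were the same under both scalings in all 3 comparisons.

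Whether the receptors changed by unequal amounts was tested on the difference of 2 gene means within each array, with exact two-sided permutation tests over the arrays. The lung change of LGR5 was 1.41 log2 units below that of LGR4 (difference of changes -1.41), and the lung and parental arrays did not overlap in this difference. Its exact permutation p of 0.0571 is the smallest that 3 against 4 arrays allow, and it was 0.171 adjusted over the 6 tests made. For LGR5 against LGR6 in lung derivatives the difference of changes was -0.56 (exact permutation p = 0.114), and in liver derivatives LGR5 was -0.44 against LGR4 (exact permutation p = 0.114) and -0.39 against LGR6 (exact permutation p = 0.171), all with overlap. Lung minus liver it was -0.97 against LGR4 without overlap (exact permutation p = 0.100, the smallest that 3 against 3 arrays allow) and -0.17 against LGR6 with overlap (exact permutation p = 0.400).

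The genes around the receptors in the pathway were taken from lists and described by their gene means. The higher-called share of all gene means was 12.9% in lung and 4.33% in liver derivatives, and the lower-called share 17.3% and 3.50%. RNF43 and ZNRF3 are not analysed here. Of 9 measured Wnt ligands, 0 were called in liver derivatives and 1 in lung derivatives, the ligand WNT11 (-0.54, SE 0.16, limma adjusted p = 0.0313; -0.11 with the set term). Their median change was -0.002 in lung and -0.02 in liver derivatives, against medians over all gene means of -0.01 and 0.01. The mean level of these ligands was 7.64 to 7.83 in parental arrays, and whether each is expressed in these cells was not tested. Of 6 Wnt receptors and co-receptors 1 was called, lower in both derivatives: ROR1, a receptor tyrosine kinase-like protein that binds Wnt5a. ROR1 averaged 7.18 ± 0.09 in lung arrays, 7.60 ± 0.09 in liver arrays and 8.597 ± 0.07 in parental arrays (SD, n = 3, 3 and 4). The change was -1.42 in lung (limma adjusted p = 4.45e-07; -1.44 with the set term) and -0.998 in liver derivatives (limma adjusted p = 5.39e-06). The Wnt co-receptors LRP5 (-0.22 in lung and 0.07 in liver derivatives) and LRP6 (-0.10 and -0.04) and the Frizzled receptors FZD4, FZD8 and FZD10 were not called.

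Among 4 secreted Wnt antagonists DKK1, which blocks LRP5 and LRP6, was higher in lung (1.36, SE 0.28) and liver derivatives (1.46, SE 0.28), and 0.43 above parental array 4 with the set term in lung, where it was not called. SFRP5, which binds Wnt ligands, was lower in lung derivatives (-0.28, SE 0.08; -0.08 with the set term). Of 9 cytoplasmic and nuclear components, BCL9, a co-activator that binds beta-catenin, fell in lung (-0.36, SE 0.07, limma adjusted p = 0.00515) and in liver derivatives (-0.38, SE 0.07, limma adjusted p = 0.00571). In lung derivatives its partner PYGO2 was also lower (-0.33, SE 0.08) and CTNNBIP1, which keeps beta-catenin from TCF factors, higher (0.30, SE 0.07). With the set term 0 of these 9 were called in lung derivatives by limma (limma adjusted p = 0.0924 for BCL9). TCF7L2, the main TCF factor of the colon, changed by -0.10 in lung and 0.07 in liver derivatives and was not called.

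Wnt target genes moved both ways. Of all gene means, 12.9% were called higher and 17.3% lower in lung derivatives, and 4.33% and 3.50% in liver derivatives. Of 9 measured targets, LGR5 included, 2 were called higher and 4 lower in lung derivatives, and 1 higher and 4 lower in liver derivatives. Beside LGR5 the lower ones in both were the hyaluronan receptor CD44 (-1.17, SE 0.11, in lung and -0.67, SE 0.11, in liver), the crypt receptor kinase EPHB2 (-0.48, SE 0.07, and -0.57, SE 0.07) and the transcription factor JUN (-0.64, SE 0.10, and -0.48, SE 0.10). The protease MMP7 was higher in lung derivatives (0.94, SE 0.19; 0.29 with the set term), as was DKK1. With the set term 2 were lower in lung derivatives, LGR5 and CD44, and 1 higher, the cyclin CCND1 (0.40). The median change of the list was -0.13 in lung and -0.46 in liver derivatives. ASCL2, a transcription factor of the same crypt stem cells as LGR5, was not called in either (-0.13 and -0.02).

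Of 5 measured intestinal stem cell genes, LGR5, CD44, EPHB2 and the Polycomb protein BMI1 were lower in lung derivatives, BMI1 by -0.34 (SE 0.08; -0.32 with the set term, not called). LGR5, CD44 and EPHB2 were lower in liver derivatives, where 3.50% of all gene means were called lower, against 17.3% in lung derivatives. The list overlaps the Wnt targets by LGR5, CD44, EPHB2 and ASCL2. With the set term 2 were lower in lung and 3 in liver derivatives. Lung and liver derivatives are set against the same parental arrays, so these 2 sets of values are not independent of each other. Between lung and liver derivatives MMP7 (1.39) was called higher, and ROR1 (-0.42), CD44 (-0.50), SFRP5 (-0.36), BMI1 (-0.33) and FOSL1 (-0.31) lower. They are the called pathway genes beside the members, where 8.02% of all gene means were called higher and 11.9% lower. With the set term the changes were 0.53, -0.45, -0.59, -0.09, -0.30 and 0.04 in the same order.

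**Figure D3:**
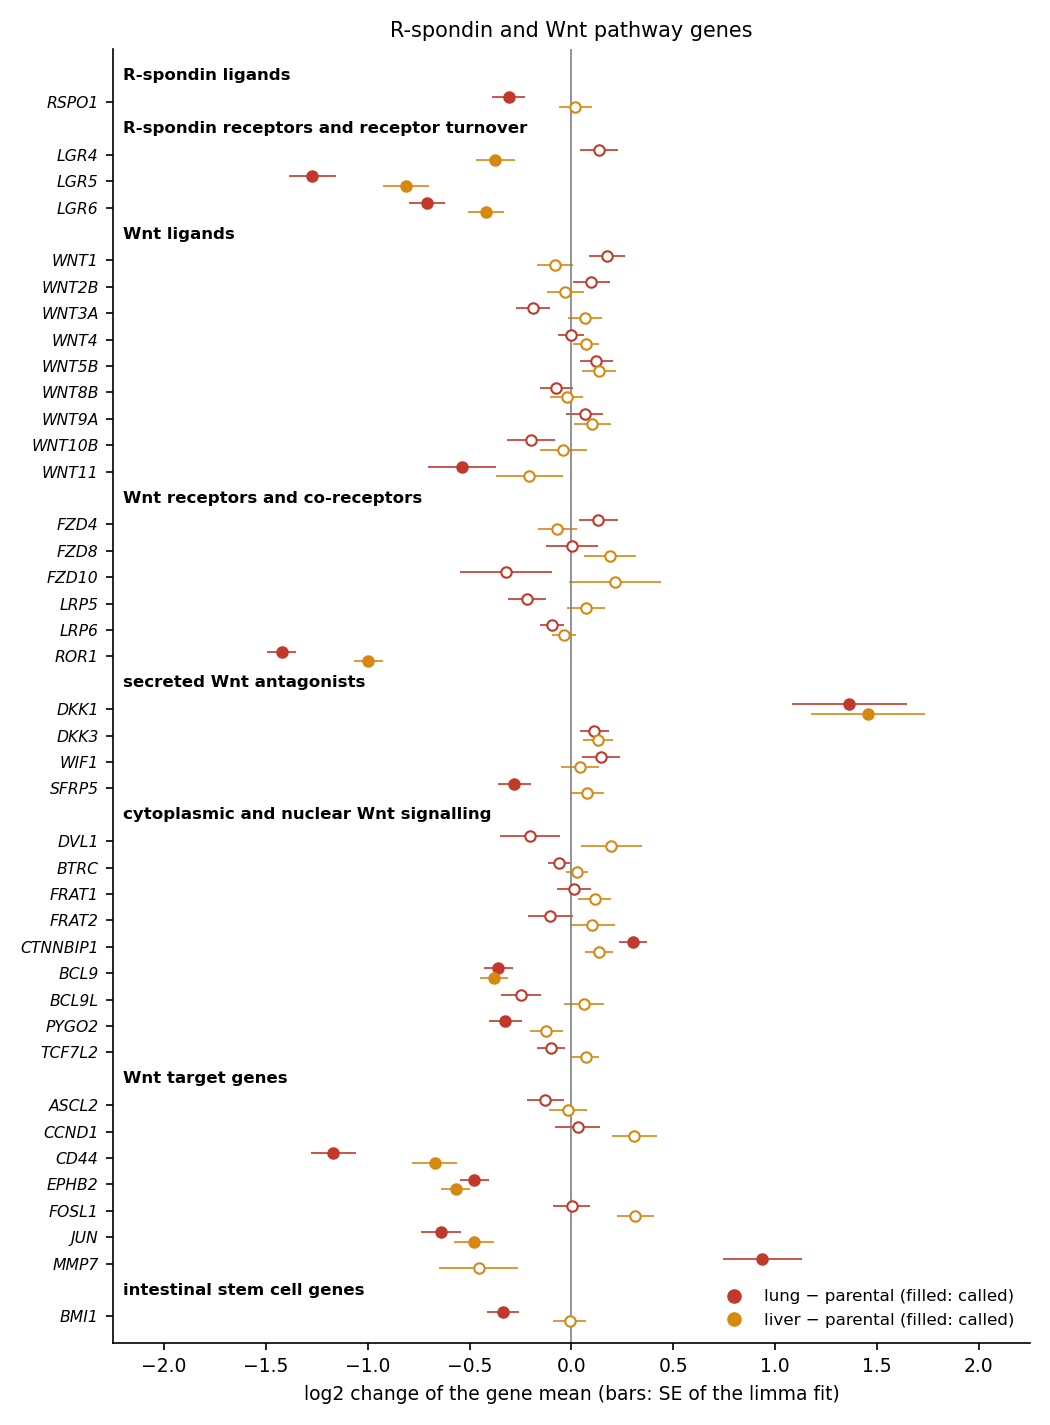
Change of the gene mean (log2, with the SE of the limma fit) in lung and liver derivatives against parental cells for the measured genes of the R-spondin and Wnt lists, each gene shown once; filled points were called. ROR1, LGR5, CD44 and LGR6 lie furthest to the left and DKK1 furthest to the right in lung derivatives, while most Wnt ligands and Frizzled receptors lie near 0.

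The genes whose values across the 10 arrays were most like those of each member were found by the root mean square difference between gene means, each centred on its own mean over the arrays, among the other 3930 genes with at least 4 rows. The arrays share groups and array sets, so genes that differ between groups by similar amounts come out as alike. For LGR5 these were the calcium release channel ITPR2 (0.15 log2 units), ARHGAP22 (0.19), ROR1 (0.19), DENND5B (0.20) and AMIGO2 (0.22), with a median of 0.57 over all genes. ITPR2 changed by -1.19 in lung and -0.46 in liver derivatives. For LGR6 they were the mesenchymal transcription factor ZEB1 (0.12), PLA2G2A (0.14), PALD1 (0.14), BORCS7 (0.14) and PIK3C2B (0.14), with a median of 0.33. ZEB1 changed by -0.66 in lung and -0.59 in liver derivatives.

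**Figure D4:**
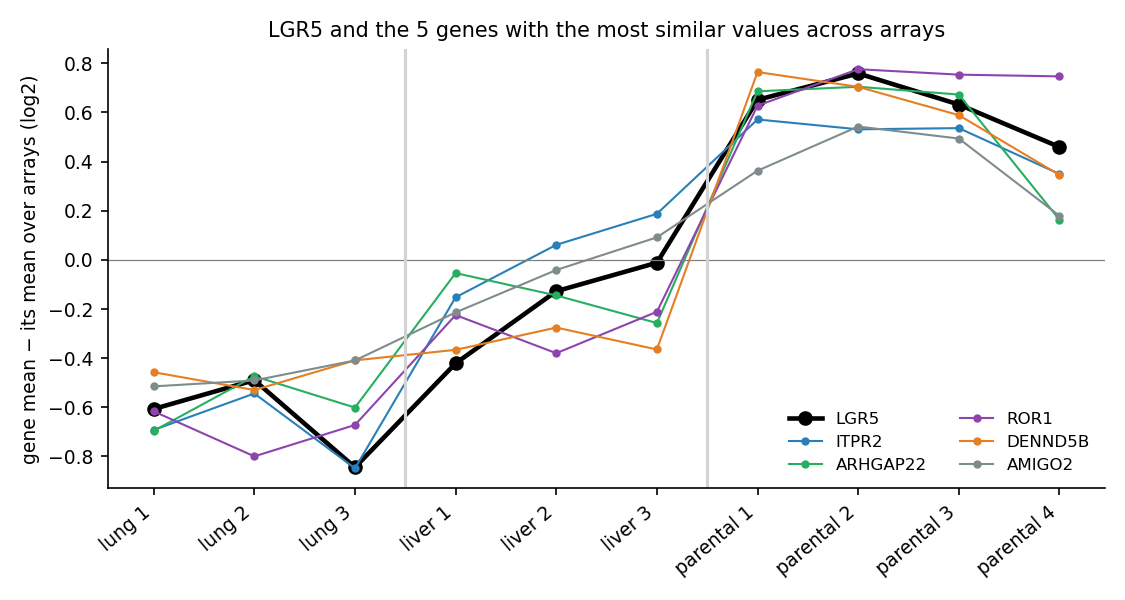
Gene mean of LGR5 and of its 5 most similar genes in each array, centred on the mean of each gene over the 10 arrays (log2); lines join arrays only as a guide. All 6 genes are lowest in the lung arrays and highest in the parental arrays, and parental array 4 is the lowest parental array for LGR5, ITPR2, ARHGAP22, DENND5B and AMIGO2 but not for ROR1.

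LGR4 and RSPO1 varied less over the arrays than LGR5. The nearest to LGR4 were SCYL3 (0.08), PPP2R5A (0.09), TBC1D12 (0.09), TDRKH (0.10) and SYT13 (0.11), with a median of 0.28 over all genes, and all 5 were higher in parental array 4 than in the other parental arrays. The nearest to RSPO1 were TOMM20 (0.06), PPIH (0.07), the Wnt ligand WNT3A (0.07), RPL27A (0.07) and PITHD1 (0.07), with a median of 0.20.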

How the data were processed

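The authors deposited log2 expression values. They name RMA and oligo (an R package) without a version, per the submitters' processing notes, and do not state whether values were summarised by exon or by gene. RMA brings all arrays to a like distribution, so a change in total RNA per cell cannot be seen, and the number of arrays limits the precision. Of 65535 rows, 56949 list at least 1 gene in the platform annotation and were tested, and 54806 list 1 symbol. After 601 of 4727 symbols were updated through RefSeq synonyms these gave 4713 genes, 4660 of them on chromosomes 1, 10, 11 and 12; others are not analysed here. Rows, and the mean of all single-symbol rows per gene, were fitted with limma 3.58.1 in R 4.3.3 on all 10 arrays with a mean for each group, two-sided, with Benjamini-Hochberg adjustment over 56949 rows or 4713 genes per comparison. A call is an adjusted p under 0.05. All single adjusted p-values in the text are from limma unless an exact test is named. The fits were tested on simulated data for lung against parental cells. These data held independent values and no array set, so that test does not bear on parental array 4. Alternatives were the array set as a term, a replicate block, each array left out, only the groups compared, 2 scalings, a minimum mean of 7, another eBayes setting, and the brightest or median row. Members and lists were chosen with earlier results of these data known. By rule, up to 6 called genes per list and comparison are named by smallest adjusted p, and the 5 genes most like each called member. LRP5, LRP6, the Frizzled genes, TCF7L2, ASCL2, KRT8 and KRT18 fall outside it and were named after their values were seen. Promoter sequences are from RefSeq.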

Additional observations from a re-analysis of the deposited data

Results flagged for a closer look

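In 5 of 76 sets of 4 parental values (the rows and gene means of the members), 1 array lay far from the other arrays, with most of the range as the gap to its nearest neighbour. Chance gives this in about 1 of 20 sets. Parental array 4 was the outlying one in LGR4 row 7947219 (gap 0.873 of the range), and in LGR5 rows 7957142 (0.891), 7957153 (0.893) and 7957154 (0.885). Parental array 2 was the outlying one in LGR5 row 7957143 (0.942). The changes of 3 gene means differed between lung and liver derivatives by the limma test of lung against liver: LGR4 by 0.51, LGR5 by -0.46 and RSPO1 by -0.33, none of which was called with the array set as a term.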

How the results depend on the processing

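Quantile normalization and median centring changed no call or direction of the 4 members. With the array set as a term, in liver against parental cells LGR4 was -0.32 and no longer called and RSPO1 turned to -0.0268. In lung against parental cells LGR4 turned to -0.0357, RSPO1 was -0.17 and no longer called, and the rows called were 0 for LGR4, 1 for LGR5, 7 for LGR6 and 0 for RSPO1. In lung against liver LGR4 (0.28), LGR5 (-0.24) and RSPO1 (-0.15) were no longer called and 0 rows of each of the 4 genes were. These fits use all arrays, but the lung values and those of lung against liver rest on the lone parental array 4.

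Replicate numbers did not pair the arrays: deviations of same-numbered arrays correlated at -0.20 to 0.13, and 4 of 18 comparisons were best with their own number. A replicate block over arrays 1 to 3 gave 786 called rows of all rows in liver against parental cells (1464 without it on the same arrays), 12420 (16222) in lung against parental and 10045 (14167) in lung against liver. Under the replicate block LGR4 was -0.32 in liver, not called, RSPO1 -0.0268 in liver, LGR5 had 3 rows called in liver and 4 in lung against liver, LGR4 3 rows in lung, and LGR6 in lung against liver (-0.29) was called.

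With the 2 groups compared alone, LGR4 in liver (-0.37) was not called, LGR6 in lung against liver (-0.29) was, and in lung 0 LGR4 rows and 1 RSPO1 row were. With rows of mean at least 7, LGR4 was -0.24 in liver (not called) and 0.33 in lung (called, 2 rows). RSPO1 was -0.25 in lung and -0.26 in lung against liver (neither called, 1 row each), LGR6 -0.30 in lung against liver (called), with 4 LGR5 rows there. With a trended, robust eBayes fit LGR6 was called in lung against liver (-0.29), with 4 LGR5 rows and 1 RSPO1 row there, and 2 LGR4 rows and 1 RSPO1 row in lung.

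By the brightest row, LGR4 (-0.18), LGR5 (-0.68) and LGR6 (-0.37) were not called in liver, LGR4 was called in lung (0.80), and RSPO1 was not called in lung (-0.0108) or lung against liver (-0.0444). By the median of rows, LGR4 (-0.26) and LGR6 (-0.36) were not called in liver, RSPO1 turned to -0.0326, LGR6 was not called in lung (-0.28), and in lung against liver LGR4 (0.53) and LGR5 (-0.24) were not called and LGR6 turned to 0.0758. This median is that of the row levels in each array, so a different row can set it in each array. The median of the LGR6 row changes in lung against liver was -0.35, with 15 of 21 rows below 0. The cause of these differences was not tested.

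With each array left out in turn, gene means ranged in liver from -0.46 to -0.32 for LGR4, -0.90 to -0.69 for LGR5, -0.47 to -0.34 for LGR6 and -0.0268 to 0.0534 for RSPO1, with 0 to 10 LGR5 rows called. In lung, RSPO1 ranged from -0.38 to -0.25, LGR5 from -1.35 to -1.17 and LGR6 from -0.76 to -0.63, with 0 to 5 LGR4, 14 to 17 LGR5, 9 to 13 LGR6 and 1 to 3 RSPO1 rows called. In lung against liver LGR4 ranged from 0.49 to 0.54, LGR5 from -0.58 to -0.36, LGR6 from -0.32 to -0.27 and RSPO1 from -0.40 to -0.27, with 0 to 4 LGR4, 0 to 4 LGR5, 0 to 9 LGR6 and 0 to 3 RSPO1 rows called. A group left with few arrays limits these fits.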
